A study of Mus musculus with 30 samples.

Results

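Livers of female mice whose mothers had drunk BPSIP were compared with livers of female mice whose mothers had drunk estradiol (E2). The comparison rests on 6 of the 30 liver libraries of the series, the 3 labelled female and BPSIP and the 3 labelled female and E2, and they were chosen by these labels alone. BPSIP is the mono-isopropyl ether of bisphenol S (BPS), a colour developer of thermal paper, and E2 is the main natural oestrogen. The mice were of the outbred ICR stock. Dams, 8 in a group, drank 10 ng/mL of BPSIP or of E2 with 0.001% ethanol, and the amount was adjusted to a target of 5 µg/kg body weight daily, so that both compounds were compared at 1 matched dose. Exposure ran over pregnancy and lactation, for about 40 days, and the offspring livers are labelled as taken at 10 weeks. Control dams drank the same ethanol without a compound, and the 3 libraries of their daughters give the control level beside each result. The 3 animals of a group were picked at random from litters of different dams, and RNA was isolated from each liver, per the labels. Food and water were freely available, per the labels, but the labels give neither the feeding state nor the hour of the day at which a liver was taken.

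The liver switches its metabolism between the fed and the fasted state. After a meal, insulin represses the genes of glucose production through FOXO1 and raises SREBP-1c, the transcription factor of fatty acid synthesis. In fasting, fatty acids released from fat tissue activate the nuclear receptor PPAR alpha, which raises fatty acid oxidation, ketone body synthesis and the hormone FGF21. Cholesterol synthesis is set by SREBP-2, which is held in the endoplasmic reticulum while sterols are plentiful. The circadian clock shifts many of these genes over the day. Liver also houses Kupffer cells, its resident macrophages, and responds to interferons and to interleukin-6 with antigen presentation genes and acute phase proteins.

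The 6 libraries held 34559410 to 37719069 counts, and the 15 female libraries of the shared fit 33360839 to 37719069. Of 17990 genes in the table, 13874 had enough counts to be tested. The biological coefficient of variation of the fit was 0.0915, a small spread for livers of an outbred stock. Whether any library held RNA of more than 1 liver was not tested, and the adjusted p-values measure only the spread between these libraries. Replicates of a group differed by more than counting error in each of the 6 pairs, so none was a copy of another. Of 17 hepatocyte markers, 10 were lower in BPSIP livers (58.8% against 18.6% of all genes) and none was higher (against 19.7% of all genes). Their sum was 134734 to 150733 CPM (counts scaled to library size) in BPSIP livers. It was 164254 to 172820 CPM in E2 livers and 148725 to 153038 CPM in control livers. In bulk RNA, fewer cells of a type and less RNA per cell cannot be told apart. Among 13 pancreatic markers 8 had no counts in BPSIP livers, and their sum was 24.2 to 26.7 CPM in BPSIP livers, 10.2 to 12.1 CPM in E2 livers and 44.3 to 50.6 CPM in control livers. Nearly all of it was Cela1, an elastase named after its value was seen, which changed by 1.28 ± 0.089. The 12 skeletal muscle markers summed to 8.64 to 13.3 CPM in BPSIP livers, 9.34 to 10.9 CPM in E2 livers and 3.71 to 13.4 CPM in control livers.

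BPSIP and E2 livers differed in 5323 of 13874 genes (38.4%) at an adjusted p under 0.05 by edgeR's quasi-likelihood test. Higher in BPSIP livers were 2738 genes (19.7%) and lower were 2585 (18.6%), while the median log2 change over all genes was 0.0016. The counts of each gene list below are to be read against these shares of all genes. The 3 BPSIP values lay apart from the 3 E2 values in 4951 of the 5323 genes. The test had already picked these genes, so this count adds no support, and the share over all genes was not counted. Most differences were small, with a median absolute log2 change of 0.49 among the genes that passed, and 762 genes were higher and 301 lower by more than 1 on the log2 scale. When a change had to exceed 1 on the log2 scale by the test itself, 273 genes were higher and 126 lower. Against the same 3 control libraries, 5354 genes differed in BPSIP livers (38.6%; 19.4% higher and 19.2% lower) and 2912 in E2 livers (21.0%; 10.4% higher and 10.6% lower). Because these comparisons share the control libraries, their values are set side by side below and not correlated.

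**Figure D1:**
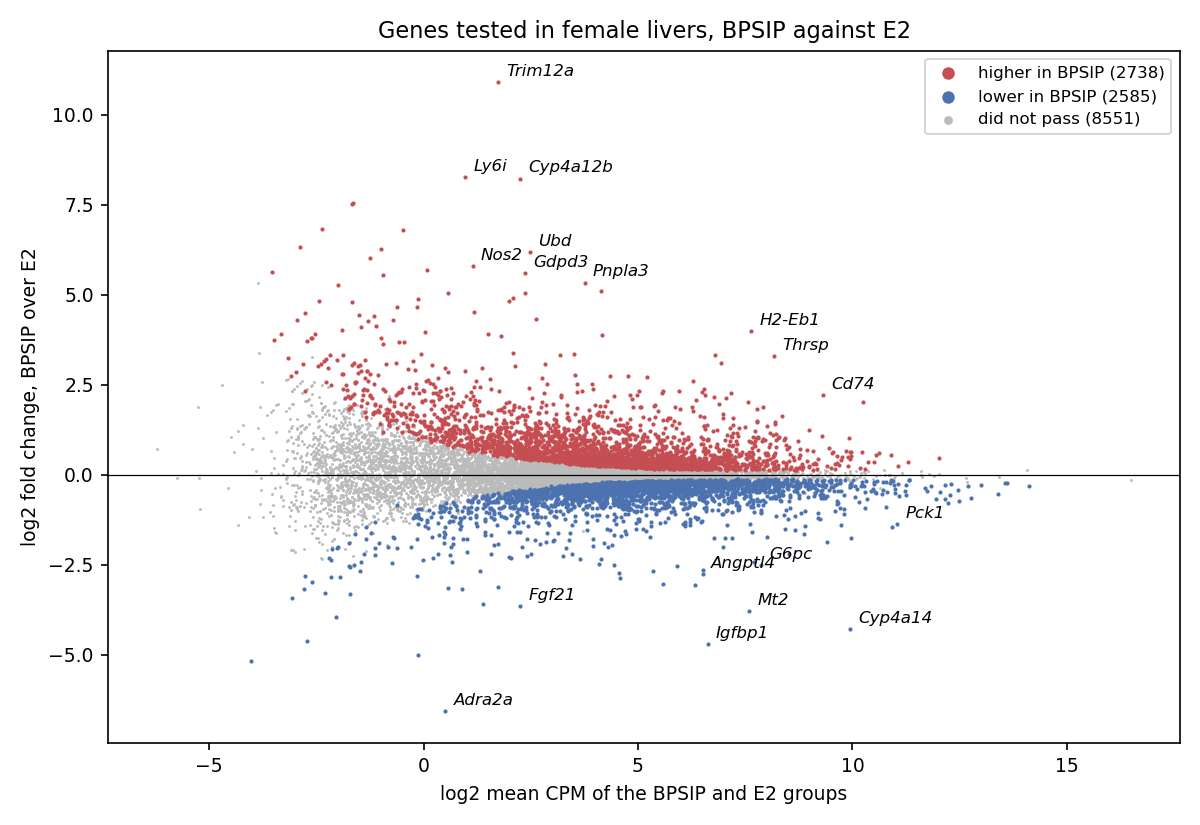
Each point is 1 of the 13874 genes tested in female livers, placed by its mean level in the BPSIP and E2 groups (log2 CPM, x axis) and its log2 fold change, BPSIP over E2 (y axis). Red marks the 2738 genes higher in BPSIP livers, blue the 2585 lower ones and grey the genes that did not pass; labelled genes are described in the text.

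Genes that insulin represses were lower in BPSIP livers than in E2 livers. Igfbp1, a secreted binding protein of insulin-like growth factors that rises in fasting, had 7.98, 6.56 and 7.24 CPM in BPSIP livers, 187, 199.9 and 183 CPM in E2 livers and 82.9, 78.6 and 76.3 CPM in control livers. The 3 groups did not overlap, with BPSIP lowest, E2 highest and control between them, and the log2 change of BPSIP over E2 was -4.71 ± 0.073 (adjusted p = 5.96e-34, edgeR). G6pc, glucose-6-phosphatase, which frees glucose for export, had 62.2, 73.2 and 72.1 CPM in BPSIP livers, 397, 396 and 391 CPM in E2 livers and 376, 387 and 367 CPM in control livers. Its change was -2.51 ± 0.05999 between BPSIP and E2 livers (adjusted p = 5.36e-28, edgeR), and E2 livers did not differ from control by the test (0.068 ± 0.056, adjusted p = 0.449). Pck1, which commits oxaloacetate to glucose synthesis, had 1155, 1174 and 1192 CPM in BPSIP livers and 3053, 3039 and 3043 CPM in E2 livers, a change of -1.38 ± 0.0498 (adjusted p = 1.02e-22, edgeR). Its control livers, at 2814, 2799.8 and 2677 CPM, lay just below the E2 livers.

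Ppp1r3g, a glycogen-targeting subunit of protein phosphatase 1, had 0.388, 0.291 and 0.194 CPM in BPSIP livers, 3.13, 2.33 and 2.5005 CPM in E2 livers and 12.2, 16.1 and 15.4 CPM in control livers, so that both exposed groups lay under control and BPSIP lay lowest (-3.16 ± 0.26, adjusted p = 1.14e-12, edgeR). Over the 44 genes of glucose metabolism and insulin signalling, 8 were higher (18.2%) and 24 lower (54.5%) in BPSIP livers, with a median change of -0.30. The 12 genes of glucose production held 10 lower members and none higher, with a median of -0.60. Medians of these 12 genes against control were -0.62 in BPSIP livers and -0.0051 in E2 livers. The feeding state behind these levels is not given in the labels, and its part in the difference was not tested.

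**Figure D2:**
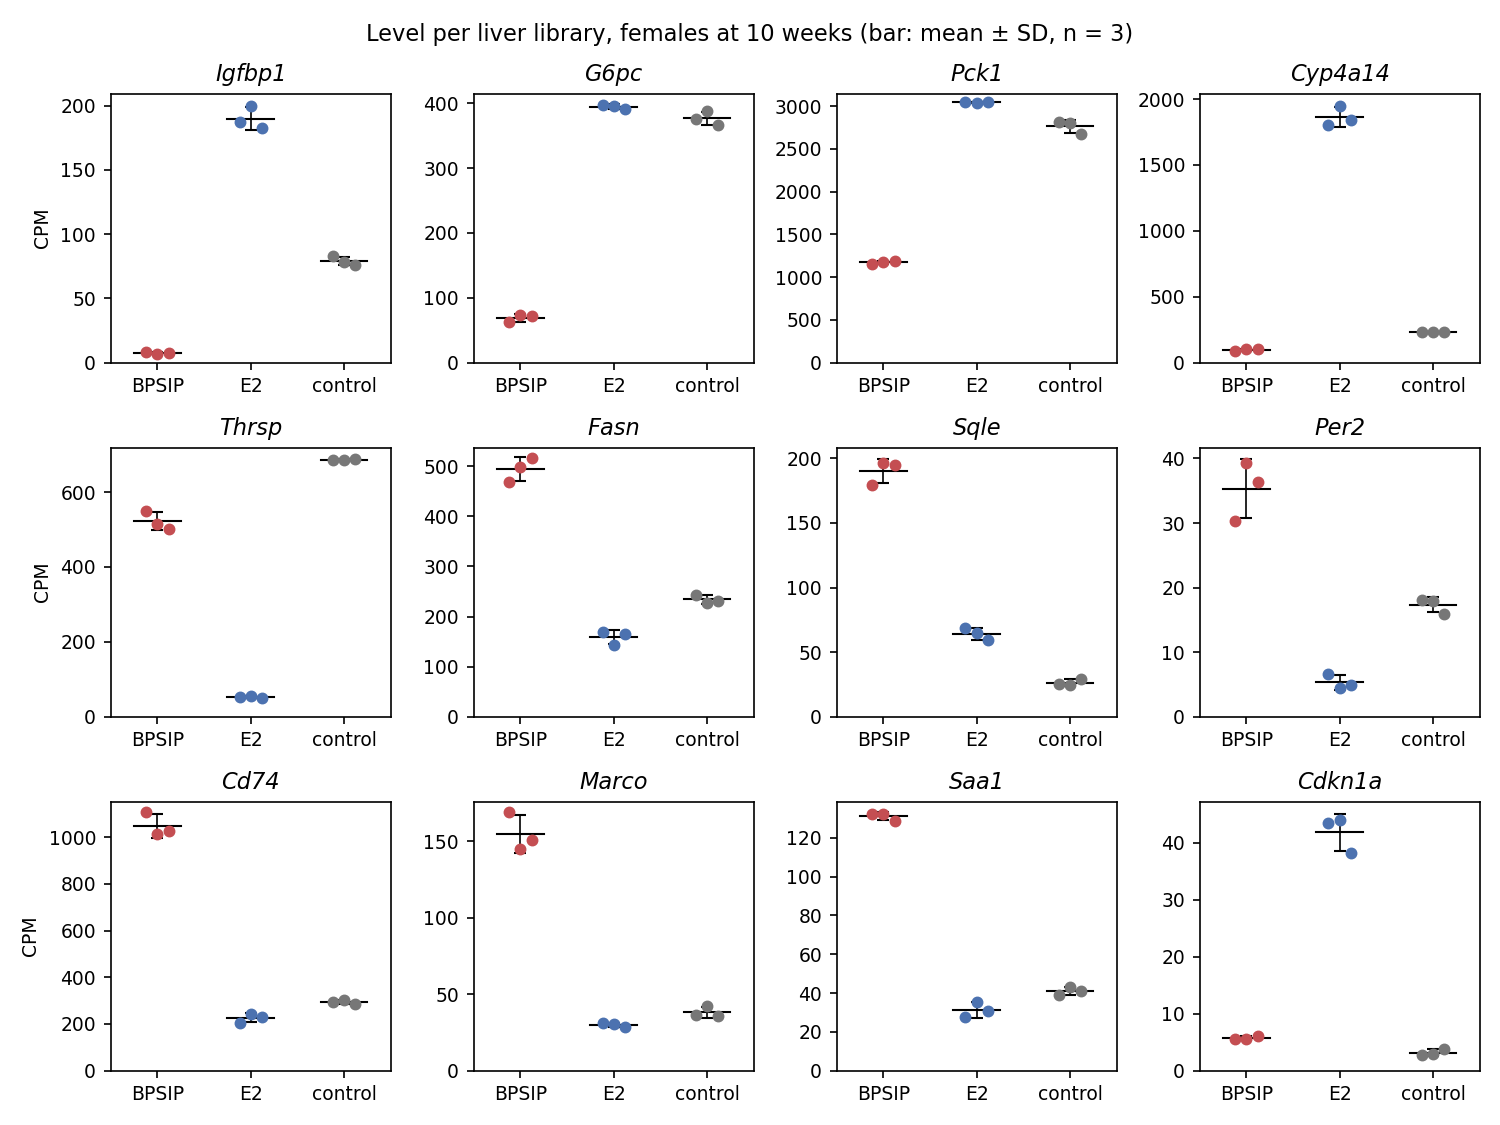
Levels of 12 genes in each of the 3 livers per group, in CPM, with BPSIP left, E2 in the middle and control right; bars are the mean ± SD (n = 3). BPSIP and E2 points do not overlap in any of the 12 panels, while the control points lie near E2 for some genes (G6pc) and near BPSIP for others (Cdkn1a).

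Fatty acid oxidation genes were lower in BPSIP livers almost as a whole. Of 43 tested PPAR alpha targets and oxidation enzymes, 41 were lower (95.3% against 18.6% of all genes), 1 was higher and 1 did not pass, with a median change of -0.66. The 17 mitochondrial and the 9 peroxisomal genes were each lower, with medians of -0.52 and -0.60. Medians against control were -0.62 for BPSIP livers and 0.15 for E2 livers over the 43 genes. The single higher member was Cyp4a32 and the one that did not pass was the fatty acid transporter Cd36, both named after their values were seen.

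Cyp4a14, a fatty acid omega-hydroxylase and PPAR alpha target, showed the widest gap of this list. It had 85.6, 100.2 and 101 CPM in BPSIP livers, 1804, 1949 and 1843 CPM in E2 livers and 236, 233 and 234 CPM in control livers. BPSIP livers were below control and E2 livers were far above it (-4.29 ± 0.065 between BPSIP and E2, adjusted p = 5.96e-34, edgeR; -1.295 ± 0.059 and 2.99 ± 0.061 for BPSIP and E2 against control). Angptl4, a secreted inhibitor of lipoprotein lipase, had 22.8, 22.1 and 25.3 CPM in BPSIP livers, 157, 165 and 156 CPM in E2 livers and 126, 118 and 125 CPM in control livers (-2.77 ± 0.067, adjusted p = 5.36e-28, edgeR). Acot1, a cytosolic acyl-CoA thioesterase, had 17.4, 17.7 and 16.9 CPM in BPSIP livers, 135, 156 and 142 CPM in E2 livers and 106, 100.3 and 106 CPM in control livers (-3.06 ± 0.074, adjusted p = 5.36e-28, edgeR). For both genes the wide step lay between BPSIP livers and the other 2 groups.

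Ehhadh, the bifunctional enzyme of peroxisomal oxidation, had 447, 455 and 465 CPM in BPSIP livers, 1463, 1609 and 1585 CPM in E2 livers and 1110.0, 1107 and 1093 CPM in control livers (-1.77 ± 0.0502, adjusted p = 7.63e-26, edgeR). Fgf21, the fasting hormone made by liver, had 0.776, 0.608 and 0.693 CPM in BPSIP livers, 9.88, 8.98 and 7.58 CPM in E2 livers and 4.75, 4.61 and 4.77 CPM in control livers (-3.66 ± 0.23, adjusted p = 6.43e-16, edgeR). In these 5 genes the E2 livers were highest and the BPSIP livers lowest, with no overlap among the 3 groups.

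Proteins of the lipid droplet surface followed the same direction. Of 15 tested members, 11 were lower in BPSIP livers and none was higher, with a median change of -0.52. Plin2, the main droplet coat protein of liver, had 258, 248 and 265 CPM in BPSIP livers, 633, 751 and 689 CPM in E2 livers and 569.8, 559 and 578 CPM in control livers (-1.43 ± 0.056, adjusted p = 9.39e-22, edgeR). Plin5, which ties droplets to mitochondria, had 37.9, 33.99 and 38.8 CPM in BPSIP livers, 88.1, 107 and 90.5 CPM in E2 livers and 58.2, 54.5 and 57.01 CPM in control livers (-1.37 ± 0.073, adjusted p = 9.17e-18, edgeR). Among the other droplet genes, G0s2, an inhibitor of the lipase ATGL, changed by -1.102 ± 0.0705, and Pnpla2, which encodes ATGL itself, by -0.64 ± 0.057, both on the log2 scale. For G0s2 and Pnpla2 the E2 livers overlapped control. Cidec, which fuses droplets, averaged 1.06 ± 0.499 CPM in BPSIP livers, 4.91 ± 0.522 CPM in E2 livers and 2.95 ± 0.6296 CPM in control livers (SD, n = 3 each).

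The enzymes of fatty acid synthesis were divided in BPSIP livers. A subset of 6 genes, which joins regulators such as Srebf1 and Thrsp to targets such as Pnpla3, was higher in full, with a median change of 1.64, against 9 higher and 4 lower among 16 fatty acid enzymes and 2 higher and 4 lower among 8 triglyceride enzymes. Over the 30 genes together, 17 were higher and 8 lower, with a median of 0.22. Thrsp, a regulator of lipid synthesis that responds to carbohydrate and thyroid hormone, had 549, 516 and 501 CPM in BPSIP livers, 53.4, 56.3 and 50.8 CPM in E2 livers and 685, 686 and 687 CPM in control livers. Its low group was E2, -3.68 ± 0.063 against control, while BPSIP livers lay -0.39 ± 0.056 from control, and the change between BPSIP and E2 livers was 3.29 ± 0.062 (adjusted p = 2.62e-31, edgeR). Srebf1, which encodes SREBP-1, had 187, 192 and 205 CPM in BPSIP livers, 58.7, 61.8 and 60.3 CPM in E2 livers and 125, 118 and 122 CPM in control livers (1.69 ± 0.057, adjusted p = 9.27e-24, edgeR).

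Fasn, the fatty acid synthase, had 469, 498 and 517 CPM in BPSIP livers, 168, 144 and 165 CPM in E2 livers and 243, 227 and 232 CPM in control livers (1.64 ± 0.059, adjusted p = 9.27e-23, edgeR). Acly, which supplies its acetyl-CoA, had 318, 319.7 and 334 CPM in BPSIP livers, 113, 113 and 125 CPM in E2 livers and 239, 236 and 233 CPM in control livers (1.47 ± 0.053, adjusted p = 8.81e-23, edgeR). In both genes, and in Srebf1, BPSIP livers stood above control and E2 livers below it. Pnpla3, a droplet-bound lipase family member under SREBP-1c in mouse liver, had 25.3, 27.1 and 26.7 CPM in BPSIP livers, 0.749, 0.374 and 0.824 CPM in E2 livers and 1.93, 3.41 and 3.27 CPM in control livers (5.33 ± 0.22, adjusted p = 1.22e-18, edgeR). Scd1, the stearoyl-CoA desaturase, did not follow this order. It had 626, 726 and 717 CPM in BPSIP livers, 753, 773 and 769 CPM in E2 livers and 2265, 2237 and 2254 CPM in control livers, so that both exposed groups lay under control by -1.71 ± 0.058 and -1.56 ± 0.057 on the log2 scale. The small difference of Scd1 between BPSIP and E2 livers (-0.15 ± 0.056, adjusted p = 0.0323, edgeR) lost its call when BPSIP replicate 1 was left out (-0.085, adjusted p = 0.258), when E2 replicate 2 or 3 was left out (adjusted p = 0.0595 and 0.08002), and when only the 6 libraries were fitted (adjusted p = 0.08499).

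Genes of cholesterol synthesis were nearly all higher in BPSIP livers. Of 27 genes, 25 were higher (92.6% against 19.7% of all genes), and the 20 enzymes of the pathway were all among them, with a median change of 1.12. Medians of the 27 genes against control were 1.47 for BPSIP livers and 0.49 for E2 livers, so that E2 livers lay between the BPSIP and control livers. The 2 lower genes were Insig2 (-1.12 ± 0.051) and Scap (-0.53 ± 0.053), named after their values were seen, both of which encode proteins that hold or escort SREBP in the endoplasmic reticulum.

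Hmgcs1, which makes the HMG-CoA of the pathway, had 822, 868 and 854 CPM in BPSIP livers, 418, 369 and 411 CPM in E2 livers and 133, 130.5 and 129 CPM in control livers (1.09 ± 0.052, adjusted p = 4.46e-19, edgeR). Sqle, the squalene epoxidase, had 179, 197 and 195 CPM in BPSIP livers, 68.3, 64.8 and 59.4 CPM in E2 livers and 25.4, 24.7 and 29.3 CPM in control livers (1.57 ± 0.068, adjusted p = 2.64e-20, edgeR). Both genes had 3 separate levels, with BPSIP highest and control lowest. Fdps, the farnesyl diphosphate synthase, had 352, 337 and 343 CPM in BPSIP livers, 91.4, 103 and 98.01 CPM in E2 livers and 89.05, 86.1 and 84.1 CPM in control livers (1.82 ± 0.055, adjusted p = 5.36e-25, edgeR), with E2 livers close to control. Nsdhl, Lss and Insig1, a sterol dehydrogenase, lanosterol synthase and an SREBP retention protein, had changes of 1.59 ± 0.0597, 1.63 ± 0.069 and 1.46 ± 0.056.

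The promoter of Hmgcs1 was the one in this list whose 300-base RefSeq window (250 bases before and 50 after the start) held the sterol element core TCACNCCAC on either strand. It is shown because of this match, not because of the levels of Hmgcs1. Capitals mark the match, 137 bases before the start in GRCm38.p6 at chr13:119690178-119690257 on the plus strand.
Hmgcs1: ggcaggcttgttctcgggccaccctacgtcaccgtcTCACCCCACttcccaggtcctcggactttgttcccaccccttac
The core was found in 1 of 19 cholesterol genes with a window (5.26%) and in 1.1% of the windows of 11055 tested genes. The other members with a window had no such letters in it, and members without a window were not searched.

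LXR targets and other genes of sterol export and storage went mostly the opposite way to cholesterol synthesis. Of 18 tested genes, 12 were lower and 4 higher in BPSIP livers, with a median of -0.36. Npc1, which moves cholesterol out of lysosomes, averaged 81.1 ± 6.81 CPM in BPSIP livers, 173 ± 13.4 CPM in E2 livers and 198 ± 7.86 CPM in control livers (SD, n = 3 each; -1.09 ± 0.066, adjusted p = 1.42e-15, edgeR). Scarb1, the receptor for high-density lipoprotein, averaged 139.7 ± 8.49 CPM in BPSIP livers, 256 ± 7.39 CPM in E2 livers and 178 ± 3.404 CPM in control livers (SD, n = 3 each; -0.87 ± 0.053, adjusted p = 2.92e-16, edgeR). Cyp46a1, a cholesterol 24-hydroxylase, and Lpcat3, a phospholipid remodelling enzyme, changed by -1.004 ± 0.055 and -0.84 ± 0.062.

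Of 34 tested bile acid genes, 18 were lower in BPSIP livers (52.9% against 18.6% of all genes) and 6 higher (17.6% against 19.7%), with a median of -0.16. Cyp7a1, which starts the classical route from cholesterol to bile acids, had 376, 444 and 417 CPM in BPSIP livers, 423, 378 and 404 CPM in E2 livers and 310.1, 305 and 303 CPM in control livers. The BPSIP and E2 values overlapped and their difference did not pass the test (log2 change 0.037 ± 0.0603, 95% interval -0.085 to 0.16), while both groups lay above control. Cyp8b1, the sterol 12-alpha-hydroxylase that makes cholic acid, had 193, 212 and 215 CPM in BPSIP livers, 578, 638 and 589.9 CPM in E2 livers and 362, 341 and 359.7 CPM in control livers (-1.54 ± 0.058, adjusted p = 2.58e-22, edgeR). Slc10a2, a sodium-dependent bile acid transporter, had 44.1, 50.9 and 48.3 CPM in BPSIP livers, 7.63, 7.02 and 6.62 CPM in E2 livers and 22.3, 20.8 and 24.8 CPM in control livers (2.75 ± 0.095, adjusted p = 2.66e-23, edgeR). Cyp8b1 was highest in E2 livers and Slc10a2 highest in BPSIP livers, and control lay between in each. Abcb4, the phospholipid pump of bile, and Cyp2c70, which makes muricholic acids in mice, changed by -1.14 ± 0.052 and 0.95 ± 0.055.

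Repressors of the circadian clock were mostly higher in BPSIP livers and its activators mostly lower. Of 11 repressors, 9 were higher and 2 lower in BPSIP livers, with a median of 0.64, and of 5 activators 3 were lower and 1 higher. Per2, a core repressor, had 30.3, 39.3 and 36.3 CPM in BPSIP livers, 6.66, 4.37 and 4.86 CPM in E2 livers and 18.03, 17.98 and 15.97 CPM in control livers (2.73 ± 0.12, adjusted p = 2.11e-20, edgeR). Dbp, an output gene with a strong daily rhythm, had 54.7, 49.5 and 50.5 CPM in BPSIP livers, 11.1, 12.1 and 9.95 CPM in E2 livers and 107, 107 and 109 CPM in control livers (2.22 ± 0.076, adjusted p = 1.99e-23, edgeR). Per2 was highest in BPSIP livers, whereas Dbp was highest in control livers, and E2 livers were lowest in both.

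Usp2, another rhythmic output gene, had 29.9, 32.01 and 31.1 CPM in BPSIP livers, 8.02, 7.57 and 6.84 CPM in E2 livers and 31.98, 29.1 and 32.2 CPM in control livers, with BPSIP overlapping control (2.05 ± 0.086 between BPSIP and E2, adjusted p = 9.30e-21, edgeR). Nr1d1, the repressor REV-ERB alpha, was one of the 2 lower repressors, with 25.4, 23.5 and 24.4 CPM in BPSIP livers, 29.3, 31.6 and 29.4 CPM in E2 livers and 61.7, 58.8 and 59.05 CPM in control livers (-0.3004 ± 0.076, adjusted p = 0.00165, edgeR). Over all 32 clock and output genes, 18 were higher and 7 lower, and medians against control were -0.18 for BPSIP livers and -0.30 for E2 livers. The hour of collection is not given in the labels, and its part in these differences, and in those of the metabolic genes above, was not tested.

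Antigen presentation genes were higher in BPSIP livers, most of all those of MHC class II. Of 11 class II genes, 9 were higher and none lower, with a median change of 2.13, and of 23 class I genes 19 were higher and 1 lower, with a median of 0.53. H2-Eb1, the beta chain of I-E, had 407, 361 and 354 CPM in BPSIP livers, 20.7, 28.5 and 21.7 CPM in E2 livers and 47.3, 44.8 and 44.1 CPM in control livers (3.99 ± 0.092, adjusted p = 2.36e-21, edgeR). Cd74, the invariant chain, had 1108, 1012 and 1027 CPM in BPSIP livers, 206, 245 and 229 CPM in E2 livers and 293, 302 and 286 CPM in control livers (2.21 ± 0.0597, adjusted p = 1.83e-26, edgeR). H2-Aa and H2-Ab1, the chains of I-A, changed by 2.27 ± 0.065 and 2.13 ± 0.065. In these 4 genes the BPSIP livers stood above both other groups, and E2 livers lay below control. H2-K1 (-0.23 ± 0.058), named after its value was seen, was the lower class I gene. The H2 genes are alike in sequence and vary between haplotypes of outbred mice, so reads may be shared or lost among them.

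Interferon response genes were higher too, with the guanylate-binding and immunity-related GTPases in front. Of 55 genes, 35 were higher (63.6%) and 2 lower in BPSIP livers, with a median of 0.42, and of 16 GTPases 14 were higher and none lower, with a median of 1.05. Cxcl9, a chemokine induced by interferon gamma, had 206, 203 and 199.9 CPM in BPSIP livers, 18.3, 20.9 and 22.3 CPM in E2 livers and 28.6, 28.2 and 28.3 CPM in control livers (3.31 ± 0.087, adjusted p = 7.24e-23, edgeR). Igtp, an immunity-related GTPase, had 431, 447 and 456 CPM in BPSIP livers, 220.5, 252 and 217 CPM in E2 livers and 65.1, 66.6 and 66.5 CPM in control livers (0.95 ± 0.056, adjusted p = 1.97e-16, edgeR). Among the BPSIP, E2 and control groups, Cxcl9 was high in BPSIP livers alone. Igtp was raised over control in both BPSIP livers (2.75 ± 0.0605) and E2 livers (1.797 ± 0.059). Tgtp2, Gbp8 and Gbp3, further GTPases of these families, changed by 1.76 ± 0.072, 2.09 ± 0.095 and 1.51 ± 0.069, and each has near-identical neighbours that may share its reads. Ubd, the ubiquitin-like protein FAT10, had 13.002, 9.46 and 10.7 CPM in BPSIP livers, 0.0832, 0.144 and 0.2198 CPM in E2 livers and 0.489, 0.218 and 0.262 CPM in control livers (6.18 ± 0.34, adjusted p = 1.65e-17, edgeR).

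The choice of libraries did not use promoter letters. Promoter windows of 4 of the interferon genes described above are shown because they hold the interferon-stimulated core. Each is 80 bases of the 300-base RefSeq window in GRCm38.p6, 5′ to 3′ on the gene's strand, and capitals mark the interferon-stimulated core GAAANNGAA or its reverse complement. Cxcl9 lies on the minus strand at chr5:92328211-92328290, Gbp3 on the plus strand at chr3:142559967-142560046, Igtp on the plus strand at chr11:58199486-58199565 and Tgtp2 on the minus strand at chr11:49064239-49064318.
Cxcl9: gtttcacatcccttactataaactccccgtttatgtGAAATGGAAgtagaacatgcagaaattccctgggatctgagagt
Gbp3: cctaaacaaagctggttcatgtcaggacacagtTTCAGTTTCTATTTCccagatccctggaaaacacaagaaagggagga
Igtp: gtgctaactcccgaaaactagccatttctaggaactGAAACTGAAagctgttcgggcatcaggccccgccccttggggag
Tgtp2: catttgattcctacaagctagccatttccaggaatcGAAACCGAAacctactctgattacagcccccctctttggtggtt
The matches begin 175, 34 and 70 bases before the start in Cxcl9, Igtp and Tgtp2, and Gbp3 holds a pair of overlapping matches at 44 and 38 bases. The core, searched on both strands, was in 27 of 41 interferon genes with a window (65.9%), in 7.49% of the windows of 11055 tested genes and in 8.57% of all 27025 windows. The gamma-activated element TTCNNNGAA was in 13 of the 41 (31.7%) and in 7.11% of the tested genes. The window of Ubd, also described above, held neither element. A match is a description of letters in this window.

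Markers of immune cells were higher with these genes. All 30 macrophage and Kupffer cell markers passed as higher in BPSIP livers, with a median of 0.97, and their sum was 3115 to 3488 CPM in BPSIP livers, 1659 to 1712 CPM in E2 livers and 1910 to 1968 CPM in control livers. Marco, a scavenger receptor of macrophages, had 169, 145 and 151 CPM in BPSIP livers, 31.1, 30.3 and 28.3 CPM in E2 livers and 36.3, 42.4 and 35.6 CPM in control livers (2.37 ± 0.073, adjusted p = 5.87e-25, edgeR). Lyz2, Adgre1 (F4/80) and Csf1r changed by 1.87 ± 0.0701, 1.53 ± 0.0799 and 1.03 ± 0.053. The Kupffer cell markers Clec4f (0.26 ± 0.057) and Vsig4 (0.33 ± 0.066), named after their values were seen, were at the low end of the list. Changes within the list ran from 0.26 to 2.37, so its members did not share 1 fold.

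Neutrophil, T and NK cell markers moved the same way at far lower sums. Of 13 neutrophil markers 8 were higher and none lower, with a sum of 73.3 to 93.7 CPM in BPSIP livers, 36.3 to 39.9 CPM in E2 livers and 44.5 to 55.03 CPM in control livers. Of 17 T and NK cell markers 8 were higher and none lower, with a sum of 61.2 to 69.5 CPM in BPSIP livers, 28.4 to 33.6 CPM in E2 livers and 30.6 to 35.8 CPM in control livers. Of 9 B and plasma cell markers 2 were higher (22.2%, near the 19.7% of all genes) and none lower, with a sum of 33.1 to 37.2 CPM in BPSIP livers, 15.01 to 15.5 CPM in E2 livers and 15.9 to 21.5 CPM in control livers. Of these 2, the B cell receptor Cd22 (0.53 ± 0.19) lost its call when BPSIP replicate 1 or 2 or E2 replicate 1 was left out (adjusted p = 0.0852, 0.0688 and 0.0768). Jchain, the joining chain of secreted antibodies, was the other, with 21.03, 20.9 and 18.9 CPM in BPSIP livers, 2.69, 3.396 and 2.91 CPM in E2 livers and 4.62, 7.96 and 5.26 CPM in control livers (2.76 ± 0.16, adjusted p = 1.72e-16, edgeR). Much of the B cell sum in BPSIP livers was Jchain. Camp, an antimicrobial peptide of neutrophil granules, averaged 4.58 ± 0.689 CPM in BPSIP livers, 0.582 ± 0.219 CPM in E2 livers and 1.302 ± 0.492 CPM in control livers (SD, n = 3 each). The part of these cells in the interferon and antigen presentation genes was not tested.

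Of 18 sinusoidal endothelial markers 1 was higher (5.56%) and 8 lower (44.4%), with a median of -0.14. Stellate cell and matrix genes were divided with 9 higher (40.9%) and 6 lower (27.3%) of 22. Stab2, a scavenger receptor of sinusoidal endothelium, changed by -0.61 ± 0.056. Col1a1 and Col3a1, the chains of fibrillar collagens, averaged 19.5 ± 2.53 and 75.96 ± 6.71 CPM in BPSIP livers, 7.58 ± 0.405 and 36.996 ± 4.71 CPM in E2 livers, and 7.06 ± 0.546 and 44.2 ± 5.47 CPM in control livers (SD, n = 3 each), with changes of 1.36 ± 0.12 and 1.04 ± 0.087. Cholangiocyte markers had 2 higher and 2 lower of 11 (18.2% each), near the shares of all genes. Red cell markers had 2 higher (15.4%) and 1 lower (7.69%) of 13, neither above those shares.

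**Figure D3:**
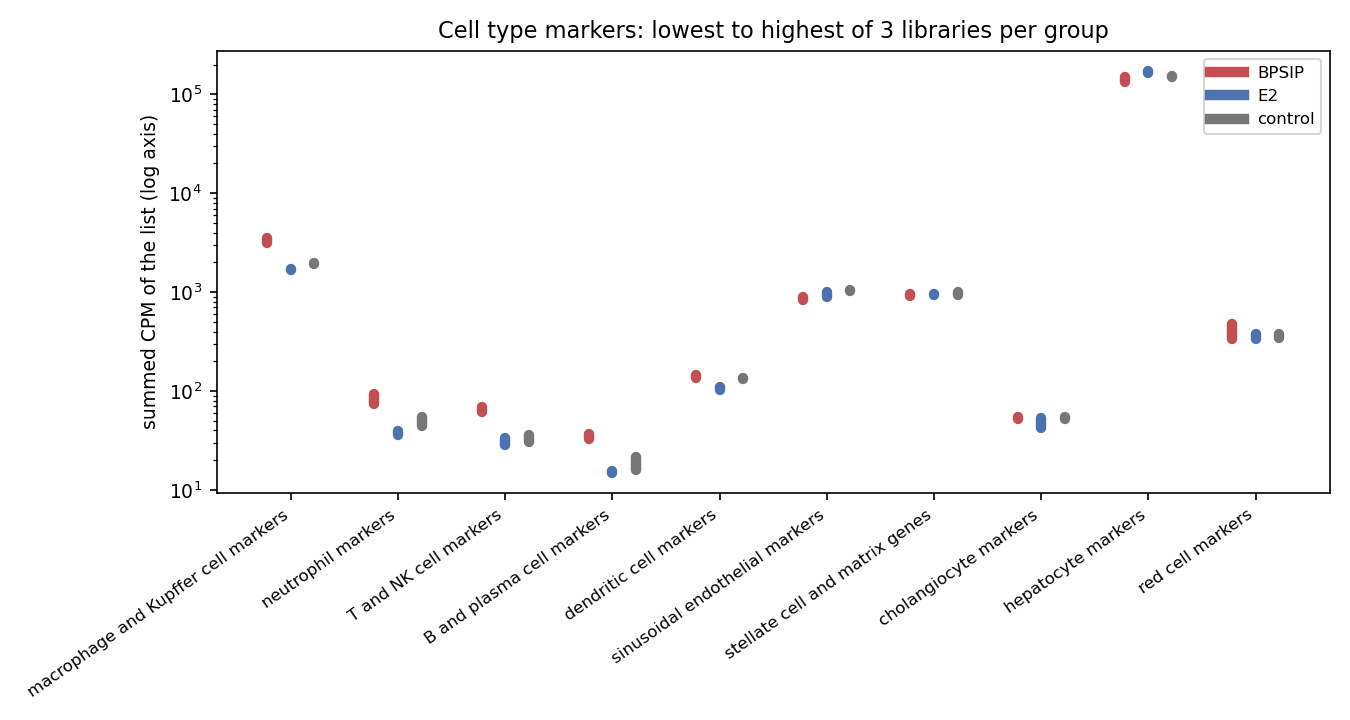
Summed CPM (log axis) of 10 lists of cell type markers in female livers; each bar spans the lowest to the highest of 3 libraries, with BPSIP left, E2 in the middle and control right of each tick. Macrophage markers span 3115 to 3488 CPM in BPSIP livers, 1659 to 1712 CPM in E2 livers and 1910 to 1968 CPM in control livers. The sums of neutrophil, T and NK cell and B cell markers are also highest in BPSIP livers. Much of the B cell sum there is Jchain. Of 9 B cell markers 2 passed as higher (22.2%, near the 19.7% of all genes).

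Acute phase genes had no common direction. Of 50, 17 were higher (34%) and 20 lower (40%) in BPSIP livers, with a median of -0.067. Lcn2, an iron-sequestering protein of the acute phase, had 175, 177 and 182 CPM in BPSIP livers, 39.2, 40.4 and 40.3 CPM in E2 livers and 38.4, 34.4 and 38.3 CPM in control livers (2.15 ± 0.062, adjusted p = 9.65e-26, edgeR). Saa1, a serum amyloid A protein, had 133, 133 and 129 CPM in BPSIP livers, 27.5, 35.5 and 30.7 CPM in E2 livers and 39.2, 43.03 and 41.1 CPM in control livers (2.07 ± 0.073, adjusted p = 2.60e-22, edgeR), and its near-identical neighbour Saa2 changed by 2.32 ± 0.075. The fibrinogen chains, also acute phase proteins, were lower: Fga, Fgb and Fgg changed by -0.67 ± 0.061, -0.72 ± 0.058 and -0.69 ± 0.059. E2 livers stood above control in the 3 fibrinogen genes, by 0.65 ± 0.061, 0.59 ± 0.058 and 0.54 ± 0.058.

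The metallothioneins were the lowest members of this list. Mt1, a metal-binding protein, had 70.6, 61.6 and 64.2 CPM in BPSIP livers, 316, 401 and 337 CPM in E2 livers and 347, 356 and 341 CPM in control livers (-2.42 ± 0.0697, adjusted p = 1.99e-23, edgeR). Mt2 had 23.9, 24.7 and 28.3 CPM in BPSIP livers, 329, 384 and 360.4 CPM in E2 livers and 305, 330.3 and 297 CPM in control livers (-3.803 ± 0.068, adjusted p = 6.82e-32, edgeR). In both, the BPSIP livers stood apart and the E2 livers overlapped control. Of 22 coagulation genes 14 were lower and 2 higher in BPSIP livers, with a median of -0.28, against 3 lower and 8 higher of 22 complement genes. Cfp, properdin of the alternative complement pathway, changed by 0.81 ± 0.076.

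Chaperones of the endoplasmic reticulum were higher in BPSIP livers. Of 25 chaperones and folding enzymes 23 were higher and none lower, with a median of 0.59, and of 11 sensors and transcription factors 5 were higher and 3 lower. Hyou1, a large chaperone of the HSP70 family, had 304, 329 and 340.1 CPM in BPSIP livers, 119, 116 and 114 CPM in E2 livers and 76.5, 75.02 and 75.96 CPM in control livers (1.48 ± 0.058, adjusted p = 8.72e-22, edgeR). Hspa5, the chaperone BiP, had 1196, 1353 and 1368 CPM in BPSIP livers, 644, 663 and 627 CPM in E2 livers and 426, 411 and 417 CPM in control livers (1.02 ± 0.059, adjusted p = 1.13e-16, edgeR). Creld2 and Manf, secreted proteins of the unfolded protein response, changed by 1.89 ± 0.079 and 1.29 ± 0.055. In these 4 genes the order was BPSIP, E2, control from high to low, with no overlap. Of 22 ATF4 targets 4 were higher (18.2%) and 5 lower (22.7%), near the 19.7% and 18.6% of all genes, with a median of 0.027.

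Cytosolic heat shock chaperones showed smaller changes, 17 higher and 2 lower of 28, with a median of 0.28. Hsph1, a nucleotide exchange factor of HSP70, had 130.2, 136 and 132 CPM in BPSIP livers, 55.3, 55.2 and 55.3 CPM in E2 livers and 55.9, 49.8 and 56.2 CPM in control livers (1.27 ± 0.058, adjusted p = 9.61e-20, edgeR). Its E2 livers overlapped control. Hsp90aa1, an HSP90 chaperone, and the co-chaperones Dnaja1 and Fkbp4 changed by 1.09 ± 0.056, 1.004 ± 0.052 and 0.92 ± 0.056.

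Most cell cycle genes were higher in BPSIP livers. Of 37 cell cycle genes 22 were higher and 2 lower, with a median of 1.06, and medians against control were 0.39 for BPSIP livers and -0.53 for E2 livers. Ccnd1, cyclin D1, had 200.4, 202 and 202 CPM in BPSIP livers, 77.3, 76.96 and 91.6 CPM in E2 livers and 138, 133 and 138 CPM in control livers (1.296 ± 0.063, adjusted p = 5.66e-19, edgeR). Mki67, the proliferation marker Ki-67, had 11.6, 10.3 and 11.3 CPM in BPSIP livers, 4.22, 2.76 and 3.02 CPM in E2 livers and 4.72, 3.84 and 4.37 CPM in control livers (1.73 ± 0.16, adjusted p = 4.95e-11, edgeR). Mcm5, of the replicative helicase, and Top2a, a topoisomerase, changed by 2.396 ± 0.21 and 1.67 ± 0.197. Immune cell markers were higher in the same libraries, and their part in the cell cycle genes was not tested.

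Cdkn1a, the cell cycle inhibitor p21, was highest in E2 livers among the BPSIP, E2 and control groups. It had 5.58, 5.55 and 6.04 CPM in BPSIP livers, 43.5, 43.9 and 38.1 CPM in E2 livers and 2.69, 2.94 and 3.85 CPM in control livers. In other exposed females it averaged 29.2 ± 2.26 CPM in BPS livers and 13.7 ± 1.52 CPM in 2,4-BPS livers (SD, n = 3 each). Its change was -2.87 ± 0.11 between BPSIP and E2 livers (adjusted p = 7.84e-22, edgeR) and 3.72 ± 0.12 between E2 and control livers. Among 25 p53 targets and cycle inhibitors 7 were lower (28%) and 2 higher (8%) in BPSIP livers. The median was 0.065, so the list as a whole did not follow Cdkn1a. Trp53inp1, Cdkn2c and Btg2, which restrain growth, changed by -1.24 ± 0.076, -0.88 ± 0.14 and -0.74 ± 0.11.

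Of 29 immediate early genes, 14 were lower (48.3%), 5 were higher (17.2%) and 10 did not pass, with a median of -0.33. Myc, a growth regulator, had 7.35, 7.19 and 6.21 CPM in BPSIP livers, 23.4, 24.4 and 23.8 CPM in E2 livers and 5.84, 6.32 and 5.32 CPM in control livers (-1.78 ± 0.12, adjusted p = 7.73e-15, edgeR). Gadd45g, a stress-induced growth inhibitor, had 6.43, 5.31 and 7.49 CPM in BPSIP livers, 36.2, 40.1 and 33.9 CPM in E2 livers and 12.9, 10.8 and 13.2 CPM in control livers (-2.52 ± 0.11, adjusted p = 3.27e-20, edgeR). In both genes E2 livers were the high group, and in Myc the BPSIP livers overlapped control. Gadd45b and Egr1 changed by -1.88 ± 0.16 and -1.67 ± 0.096.

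Genes of oestrogen action were divided in direction between BPSIP and E2 livers. Of 33 tested, 14 were higher (42.4%) and 12 lower (36.4%) in BPSIP livers, with a median of 0.13. The receptors and cofactors had 3 higher (23.1%) and 5 lower (38.5%) of 13. The 16 oestrogen-metabolising enzymes had 7 higher and 7 lower (43.75% each). Of 8 genes known to respond to oestrogen in other tissues, 4 had too few counts to be tested. The other 4 were all higher in BPSIP livers, with a median of 1.04. Against control, these 4 had medians of 0.62 in BPSIP livers and 0.19 in E2 livers. They were Ctsd (0.28 ± 0.051), a lysosomal protease, Xbp1 (0.28 ± 0.054), a transcription factor of the unfolded protein response, Ltf (1.80 ± 0.34), lactoferrin, which neutrophil granules also hold, and Ccn5 (2.31 ± 0.57), named after their values were seen. The part of neutrophils, whose markers were higher in the same libraries, in the change of Ltf was not tested. Esr1, oestrogen receptor alpha, had 32.5, 35.5 and 32.7 CPM in BPSIP livers, 19.3, 11.7 and 19.4 CPM in E2 livers and 24.1, 20.7 and 20.01 CPM in control livers (0.998 ± 0.13, adjusted p = 7.80e-06, edgeR). BPSIP livers lay above both other groups, and E2 livers did not differ from control by the test (-0.36 ± 0.14, adjusted p = 0.0719). The genes Esr2, Pgr and Tff1 had no counts in the BPSIP and E2 livers. Sult1e1, which inactivates oestrogens by sulfation, had 3.44, 4.57 and 4.69 CPM in BPSIP livers, 0.693, 0.489 and 1.15 CPM in E2 livers and 7.11, 8.15 and 6.28 CPM in control livers (2.43 ± 0.25, adjusted p = 3.50e-10, edgeR). Hsd17b11 and Akr1c6, hydroxysteroid dehydrogenases, changed by -0.81 ± 0.057 and 0.43 ± 0.053.

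Genes that differ between male and female mouse liver were split. Of 43 tested genes known as male-biased, 17 were higher (39.5% against 19.7% of all genes) and 4 lower (9.3% against 18.6%) in BPSIP livers. Their median was 0.32. Of 53 female-biased genes 17 were higher (32.1%) and 25 lower (47.2%), with a median of -0.16. Medians of the male-biased genes against control were -0.0099 for BPSIP livers and -0.69 for E2 livers. Hsd3b5, a male-biased steroid reductase, had 46.1, 45.8 and 47.6 CPM in BPSIP livers, 13.9, 12.7 and 11.05 CPM in E2 livers and 46.02, 43.1 and 46.2 CPM in control livers (1.89 ± 0.077, adjusted p = 2.90e-21, edgeR). Nudt7, a peroxisomal CoA hydrolase, and Selenbp2, a selenium-binding protein, changed by 1.58 ± 0.056 and 1.23 ± 0.054. In Hsd3b5 and Selenbp2 the BPSIP livers overlapped control and the E2 livers were low. Cyp4a12a, a fatty acid hydroxylase of male liver, averaged 1.79 ± 0.625 CPM in BPSIP livers, 0.289 ± 0.112 CPM in E2 livers and 6.56 ± 0.695 CPM in control livers (SD, n = 3 each).

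Among female-biased genes, Sult3a1, a sulfotransferase, had 229.96, 236 and 218 CPM in BPSIP livers, 695, 734 and 714 CPM in E2 livers and 243, 251 and 254 CPM in control livers (-1.65 ± 0.051, adjusted p = 9.82e-25, edgeR). Its near-identical neighbour Sult3a2 changed by -1.76 ± 0.056, and reads may be shared between them. Cyp17a1, the steroid 17-alpha-hydroxylase, had 9.29, 11.7 and 10.7 CPM in BPSIP livers, 86.5, 87.4 and 84.3 CPM in E2 livers and 52.7, 50.3 and 53.9 CPM in control livers (-3.03 ± 0.084, adjusted p = 4.27e-26, edgeR). Growth hormone and insulin-like growth factor genes had 9 higher (37.5%) and 7 lower (29.2%) of 24. Socs2, a feedback inhibitor of growth hormone signalling, averaged 18.4 ± 2.35 CPM in BPSIP livers, 54.4 ± 4.15 CPM in E2 livers and 22.5 ± 1.45 CPM in control livers (SD, n = 3 each; -1.56 ± 0.083, adjusted p = 8.22e-18, edgeR). Cux2, a female-specific repressor of male genes in mouse liver, and Igfbp2, a growth factor binding protein, changed by -0.97 ± 0.073 and -1.07 ± 0.059.

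Of 59 xenobiotic metabolism genes, 25 were higher (42.4%) and 15 lower (25.4%) in BPSIP livers, with a median of 0.13. Cyp1a2, which oxidises aromatic amines and oestrogens, had 371, 403 and 402 CPM in BPSIP livers, 193, 206 and 202 CPM in E2 livers and 490.2, 481 and 480.3 CPM in control livers (0.97 ± 0.054, adjusted p = 2.58e-17, edgeR). Cyp2b10, the standard target of the receptor CAR, had 20.01, 24.7 and 21.5 CPM in BPSIP livers, 6.44, 8.17 and 6.95 CPM in E2 livers and 27.1, 26.9 and 30.6 CPM in control livers (1.62 ± 0.105, adjusted p = 2.19e-15, edgeR). Cyp2a5, a coumarin hydroxylase, had 692, 739 and 729.8 CPM in BPSIP livers, 302, 312 and 294 CPM in E2 livers and 1117, 1061 and 1090.01 CPM in control livers (1.25 ± 0.057, adjusted p = 8.70e-20, edgeR). In these 3 genes BPSIP livers lay between E2 and control, with control highest. Aldh1a7, an aldehyde dehydrogenase, and Cyp3a25 changed by 1.15 ± 0.054 and -1.02 ± 0.054.

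Ribosomal, oxidative phosphorylation, and urea cycle and amino acid genes had small median changes, though many members of the first and last of these lists passed as lower. Of 46 cytosolic ribosomal protein genes 35 were lower (76.1% against 18.6% of all genes) and 1 higher in BPSIP livers, with a median of -0.26. Medians against control were -0.14 for BPSIP livers and 0.11 for E2 livers. Rps2 had 195, 166 and 172 CPM in BPSIP livers, 483, 557 and 486 CPM in E2 livers and 165, 178 and 176 CPM in control livers (-1.52 ± 0.0697, adjusted p = 3.47e-17, edgeR), though its many processed pseudogenes can take or lend reads. Of 45 oxidative phosphorylation genes 7 were lower (15.6%) and 2 higher (4.44%), neither above the shares of all genes, with a median of -0.080. Of 43 urea cycle and amino acid catabolism genes 24 were lower (55.8%) and 8 higher (18.6%), with a median of -0.18. Amdhd1, of histidine breakdown, Got1, an aspartate aminotransferase, Gldc, of glycine cleavage, and Cth, which makes cysteine, changed by -1.05 ± 0.052, -0.98 ± 0.052, -0.69 ± 0.054 and -0.64 ± 0.049.

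**Figure D4:**
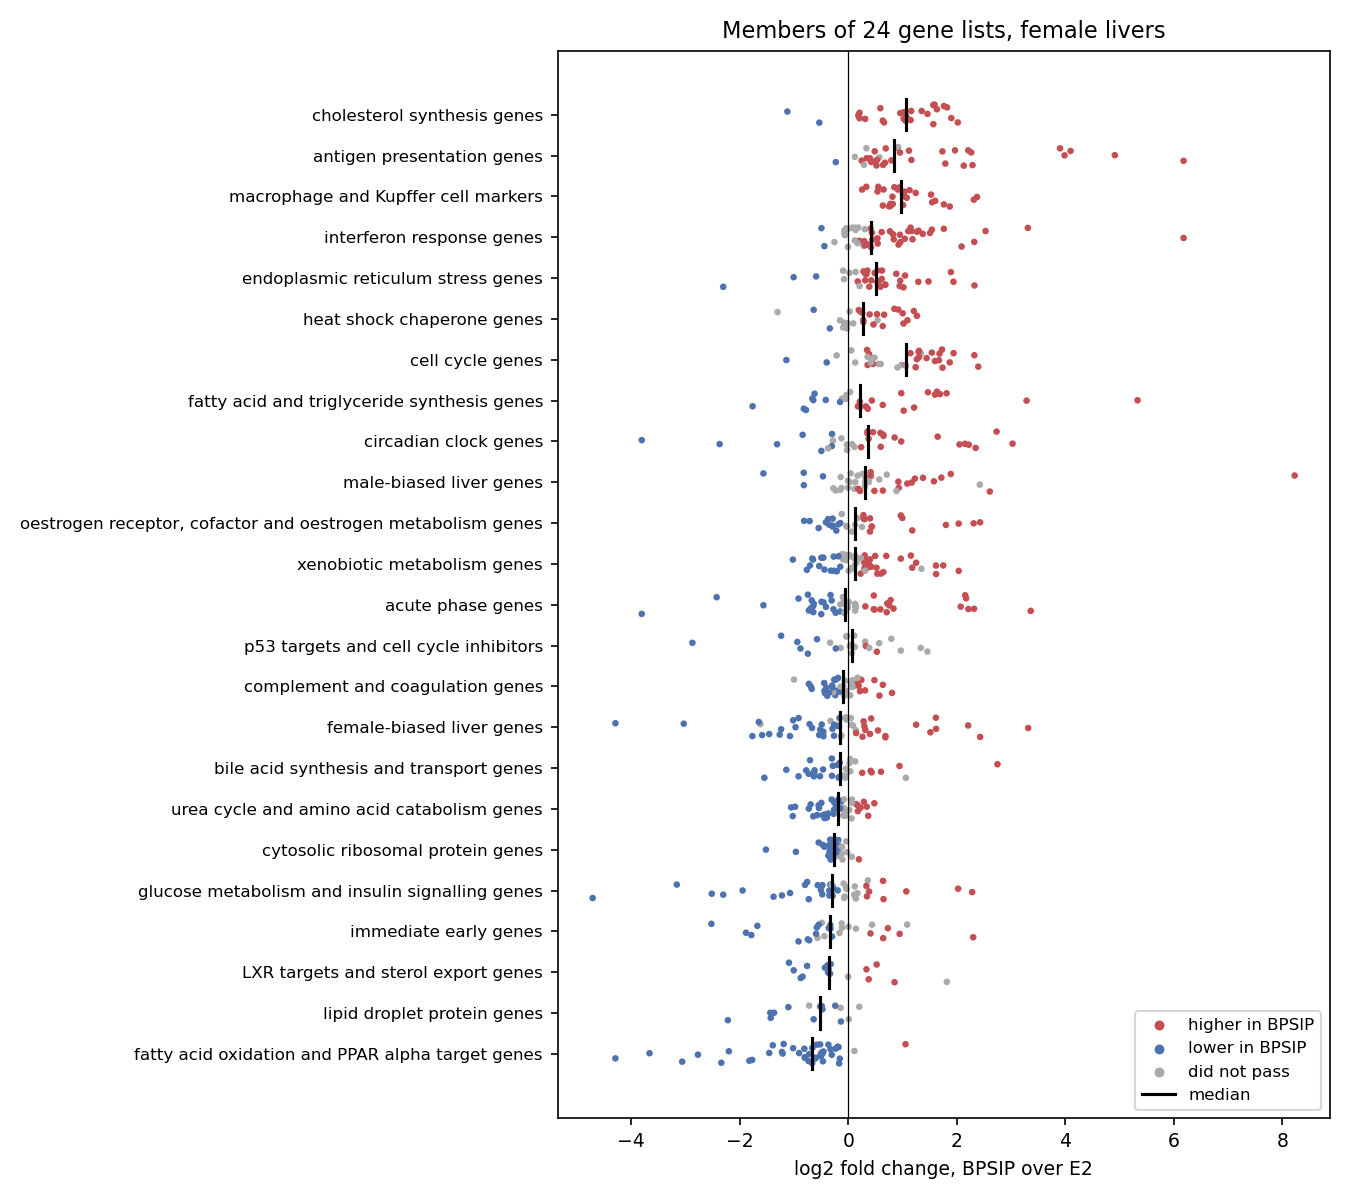
Log2 fold change, BPSIP over E2, of the tested members of 24 gene lists in female livers (x axis), with 1 row per list; red points were higher, blue lower and grey did not pass, and the black bar is the list's median. Cholesterol synthesis genes lie to the right with a median of 1.06, and fatty acid oxidation genes to the left with a median of -0.66.

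Genes with the widest changes were mostly at or near 0 in 1 of the groups. Trim12a, of the TRIM5-like cluster, had 6.82, 6.87 and 6.24 CPM in BPSIP livers, no counts in the 3 E2 livers and 0.869, 1.199 and 1.34 CPM in control livers, which is at least 238-fold higher in BPSIP livers against a floor of 3 counts over the E2 group. Ly6i, of the Ly6 cluster, had 3.64, 3.75 and 4.38 CPM in BPSIP livers, 1 count in the E2 livers and 0.109, 0.109 and 0.0524 CPM in control livers, a ratio of BPSIP to E2 of 419 with a 95% counting interval of 74.8 to 16585. Cyp4a12b had 9.46, 9.57 and 9.18 CPM in BPSIP livers, 3 counts in the E2 livers and 12.7, 16.1 and 17.2 CPM in control livers, and its ratio of BPSIP to E2 was 336 (95% counting interval 115 to 1632). These 3 genes have near-identical neighbours, and alleles that differ between outbred animals can change how reads align.

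Nos2, the inducible nitric oxide synthase, had 3.32, 4.73 and 4.96 CPM in BPSIP livers, 0.0277, 0.173 and 0.0275 CPM in E2 livers and 0, 0.163 and 0.157 CPM in control livers (5.79 ± 0.65, adjusted p = 9.81e-09, edgeR). Chil1, a chitinase-like protein of myeloid cells, had 31.9, 38.1 and 31.9 CPM in BPSIP livers, 1.803, 0.576 and 0.5496 CPM in E2 livers and 1.602, 1.42 and 0.995 CPM in control livers (5.11 ± 0.42, adjusted p = 1.04e-06, edgeR). Gdpd3, a lysophospholipase D, had 10.8, 9.44 and 10.1 CPM in BPSIP livers, 0.277, 0.259 and 0.0824 CPM in E2 livers and 0.136, 0.327 and 0.288 CPM in control livers (5.601 ± 0.29, adjusted p = 5.84e-18, edgeR). In these 3 genes the E2 livers overlapped control and the BPSIP livers stood apart from both. Gdpd3 also had 7.99, 7.24 and 10.3 CPM in female 2,4-BPS livers, which overlapped the BPSIP livers. Nos2 and Chil1 averaged 0.362 ± 0.302 and 1.36 ± 0.181 CPM in female 2,4-BPS livers (SD, n = 3 each). Pla2g2d, a secreted phospholipase A2, changed by 5.05 ± 0.62, and Ppfia4, a liprin, by 5.68 ± 0.59, with BPSIP livers overlapping control in Ppfia4.

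Among the widest decreases, Adra2a, the alpha-2A adrenergic receptor, had 3 counts in the BPSIP livers and 2.497, 3.28 and 2.67 CPM in the E2 livers, a ratio of E2 to BPSIP of 108 with a 95% counting interval of 36.5 to 525, and 0.462, 0.627 and 0.314 CPM in control livers. Igsf23 had 0.388, 0.185 and 0.60996 CPM in BPSIP livers, 4.799, 5.35 and 4.31 CPM in E2 livers and 0.326, 0.327 and 0.655 CPM in control livers (-3.61 ± 0.29, adjusted p = 1.16e-12, edgeR). Of the BPSIP, E2 and control groups, E2 livers were highest in Adra2a and Igsf23. Igsf23 averaged 7.45 ± 0.386 CPM in female 2,4-BPS livers, above the E2 livers, and 1.65 ± 0.247 CPM in female BPS livers. Adra2a averaged 0.856 ± 0.32 and 1.38 ± 0.372 CPM in female 2,4-BPS and BPS livers (SD, n = 3 each). Trim6, of the same cluster as Trim12a, had 0.679, 0.978 and 0.388 CPM in BPSIP livers, 7.38, 5.38 and 5.22 CPM in E2 livers and 7.14, 6.19 and 6.18 CPM in control livers (-3.12 ± 0.25, adjusted p = 6.86e-13, edgeR), and Hsbp1l1 changed by -3.19 ± 0.299. For Trim6 and Hsbp1l1 the low group was BPSIP, with E2 overlapping control. The other 6 of the 10 widest decreases among genes with at least 1 CPM, Igfbp1, Cyp4a14, Mt2, Fgf21, Acot1 and Ppp1r3g, are given above.

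Unless another group is named, terms such as highest, lowest or apart in the text above compare the BPSIP, E2 and control groups only. At the same dose and age the other pairs among female exposed groups also differed in many genes. BPSIP livers differed from BPS livers in 5455 genes (39.3%; 19.2% higher and 20.1% lower) and from 2,4-BPS livers in 4931 (35.5%; 17.3% higher and 18.3% lower). BPS livers differed from E2 livers in 3548 (25.6%; 13.4% higher and 12.2% lower) and 2,4-BPS livers from E2 livers in 4141 (29.8%; 16.1% higher and 13.7% lower).

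The same contrast in male offspring gave other directions for many genes. In a fit of 27 libraries, BPSIP and E2 livers of males differed in 3471 of 14083 genes (24.6%, with 11.1% higher and 13.5% lower). The libraries labelled male control were left out, because their expression went against their label in earlier results of these data. The difference between the sexes itself, female minus male, passed in 5084 genes (36.1%), of which 2689 were above 0 (19.1%) and 2395 below 0 (17.0%). Of a panel of 25 genes, chosen with earlier results of these data known, 24 passed this test. In both sexes 14 passed in opposite directions. Sqle changed by 1.57 ± 0.068 in females and -2.65 ± 0.079 in males, a difference of 4.22 ± 0.104 (adjusted p = 2.17e-39, edgeR). Cyp4a14 changed by -4.28 ± 0.062 in females and 0.94 ± 0.054 in males, a difference of -5.23 ± 0.081 (adjusted p = 2.37e-48, edgeR). Lcn2 averaged 4.53 ± 0.674 CPM in male BPSIP livers and 1136 ± 89.4 CPM in male E2 livers (SD, n = 3 each), so that its change of -7.97 ± 0.19 in males lay opposite to 2.16 ± 0.14 in females. Saa1 averaged 39.3 ± 2.57 CPM in male BPSIP livers and 8135 ± 193 CPM in male E2 livers (SD, n = 3 each), with the same opposition.

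Some genes moved the same way in both sexes of this fit. Dbp changed by 2.23 ± 0.075 in females and 2.59 ± 0.073 in males, Igfbp1 by -4.702 ± 0.074 and -1.05 ± 0.062, G6pc by -2.51 ± 0.055 and -1.098 ± 0.052, and Cdkn1a by -2.87 ± 0.12 and -1.52 ± 0.12, all in the direction seen in females though by unequal amounts. Scd1 was the panel gene whose difference between the sexes did not pass (-0.044 ± 0.0699, adjusted p = 0.668, edgeR, 95% interval -0.18 to 0.096).

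**Figure D5:**
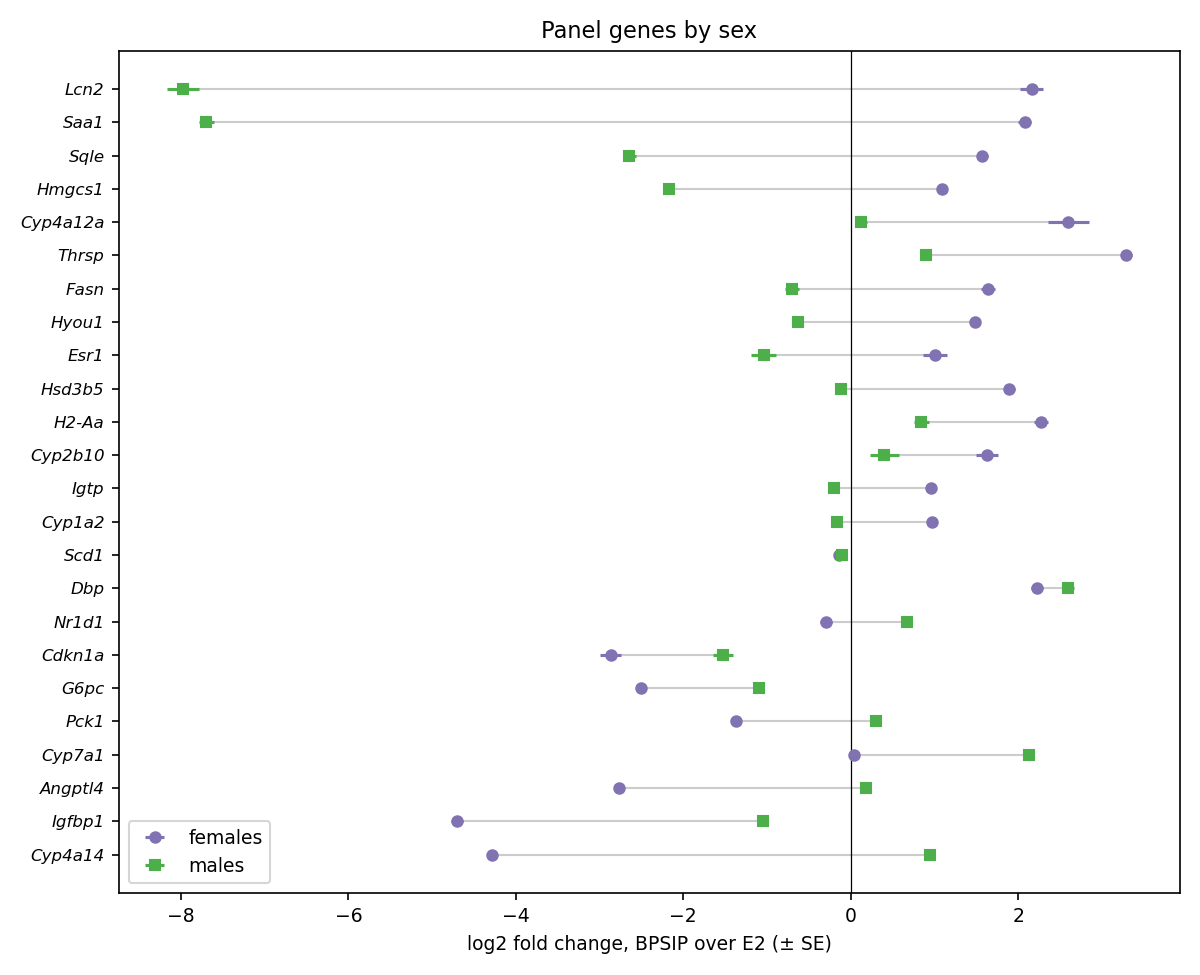
Log2 fold change, BPSIP over E2, of 24 panel genes in females (circles) and males (squares) from the fit of 27 libraries; bars are ± SE, often within the symbol. Lcn2, Saa1, Sqle and Hmgcs1 lie right of 0 in females and left of 0 in males, and Cyp4a14 and Pck1 the other way.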

How the data were processed

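RNA isolated from each liver was sequenced from libraries of a SMARTER mRNA-Seq kit, per the labels' protocols. The authors deposited a table of read counts per gene symbol for 30 libraries, and the submitters' processing notes name HISAT2, HTSeq, DESeq2 and R 3.2.0. The strand setting, annotation and genome build are not given in the sources used, so overlapping and antisense genes may share reads. A table of FPKM was not used.

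The test of counts was edgeR 4.0.16 under R 4.3.3. The 15 female libraries entered 1 fit, filtered by filterByExpr and scaled by TMM (factors 0.928 to 1.09), with a robust quasi-likelihood model of 10 residual degrees of freedom. Benjamini-Hochberg adjustment ran over 13874 genes, with 0.05 as threshold. Log2 changes are ± standard error and CPM use the TMM-scaled totals. The difference between sexes was an interaction in a fit of 27 libraries (14083 genes). Scripts were tested on simulated data.

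Named genes were a panel of 25, the 10 widest changes each way without overlap at a mean of at least 1 CPM, and up to 4 members of each of 38 lists with the smallest p, 173 in all, of which 3 are not reported here. Members and lists were chosen with earlier results of these data known. Of the 173 genes, 126 had a RefSeq promoter window (GRCm38.p6). Floors of 3 counts and 95% counting intervals cover counting error only. Alternatives were RLE scaling, no filter, DESeq2 1.42.0, fewer libraries, a replicate block, a minimum change and leaving out each replicate.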

Additional observations from a re-analysis of the deposited data

Results flagged for a closer look

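The change of BPSIP over E2 differed between females and males by the test of the difference itself in 5084 genes of the fit of 27 libraries, 36.1% of those tested. It also differed in 24 of the 25 panel genes. The panel was chosen with earlier results of these data known, so its count adds no support to that share. The differences below are female minus male on the log2 scale, with adjusted p-values under the threshold in edgeR, and they speak for the genes named, not for their groups.

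Within the panel the widest differences were those of the acute phase proteins Lcn2, 10.13 ± 0.23, and Saa1, 9.77 ± 0.12. Saa1 averaged 129 ± 2.31 CPM in female BPSIP livers, 30.6 ± 3.91 CPM in female E2 livers, 39.3 ± 2.57 CPM in male BPSIP livers and 8135 ± 193 CPM in male E2 livers (SD, n = 3 each), so the high group was male E2. The cholesterol synthesis genes of the panel differed by 4.22 ± 0.104 for Sqle and 3.27 ± 0.071 for Hmgcs1, and Sqle averaged 10.6 ± 0.517 CPM in male BPSIP livers and 66.4 ± 5.03 CPM in male E2 livers. Lipid synthesis genes differed by 2.39 ± 0.084 for Thrsp and 2.34 ± 0.12 for Fasn.

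PPAR alpha targets differed by -5.23 ± 0.081 for Cyp4a14 and -2.94 ± 0.081 for Angptl4, and Cyp4a14 averaged 1383 ± 50.4 CPM in male BPSIP livers and 720.3 ± 17.5 CPM in male E2 livers. Genes of glucose production and fasting differed by -1.41 ± 0.074 for G6pc, -1.68 ± 0.061 for Pck1 and -3.65 ± 0.095 for Igfbp1, with Pck1 changing by -1.37 ± 0.044 in females and 0.31 ± 0.043 in males. Clock genes differed by -0.37 ± 0.103 for Dbp and -0.97 ± 0.092 for Nr1d1. Immune genes differed by 1.15 ± 0.081 for Igtp and 1.43 ± 0.12 for H2-Aa, and H2-Aa was higher in BPSIP livers of both sexes (2.27 ± 0.083 in females and 0.84 ± 0.095 in males).

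The chaperone Hyou1 differed by 2.11 ± 0.082 and the cycle inhibitor Cdkn1a by -1.34 ± 0.17. Esr1 differed by 2.04 ± 0.21, with 1.002 ± 0.14 in females and -1.04 ± 0.15 in males. Cyp7a1 differed by -2.08 ± 0.082, having changed by 2.13 ± 0.061 in males and by 0.042 ± 0.057 in females. Cytochromes of xenobiotic metabolism differed by 1.22 ± 0.22 for Cyp2b10 and 1.13 ± 0.072 for Cyp1a2. The male-biased genes Cyp4a12a and Hsd3b5 differed by 2.48 ± 0.26 and 2.01 ± 0.080, and in males neither change passed the test (0.12 ± 0.067 and -0.12 ± 0.051).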

How the results depend on the processing

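The 5323 calls between BPSIP and E2 livers became 5322 with RLE scaling (5308 of the main calls kept with their direction), 5244 without a filter, 5406 with DESeq2 (5241 kept), 4774 in a fit of the 6 libraries (4710 kept) and 4711 to 5207 when 1 replicate was left out. Replicate numbers were not taken as pairs of livers. Deviations of same-numbered BPSIP and E2 libraries correlated at -0.0919, -0.0923 and -0.12, and those of libraries with different numbers at 0.0177 to 0.0761. Deviations from a mean of 3 libraries depend on one another, so these values cannot decide whether the numbers pair livers. A replicate block gave 5208 calls, with no named gene changing its call. When the change had to exceed 1 on the log2 scale, 399 genes passed between BPSIP and E2 (273 higher, 126 lower), 306 between BPSIP and control (196 and 110) and 114 between E2 and control (41 and 73), because this test asks for a wider change. The counts against control were 4655 to 4825 for BPSIP and 2250 to 2887 for E2 with 1 replicate left out. The count of genes that differ between the sexes was 4730 to 4998 with 1 replicate left out and 5131 in all 30 libraries, male controls included. It was 4745 in 12 libraries and 5038 with a replicate block. Signs turned for 3 values that had not passed: Cyp7a1 (-0.020 to 0.099 with 1 replicate left out), Tnni2 (-0.061 to 1.09) and the sex difference of Scd1 (-0.088 to 0.029). Besides Scd1 and Cd22, low-level markers such as Alas2, Gata1, Tnnt3, Spp1, Cd24a and Xcr1 lost their call without at least 1 library, and Cfd gained one without BPSIP replicate 3. For these the cause was not tested.
With 3 livers per group from an unstated hour and feeding state, the part of either was not tested, and at depths of 34559410 to 37719069 counts genes under about 1 CPM carry wide errors.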

Other observations

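Dendritic cell and adipocyte markers complete the cell type lists. Of 10 dendritic cell markers 4 were higher (40%) and 1 lower (10%) in BPSIP livers. Their sum was 136 to 146 CPM in BPSIP livers, 101 to 109 CPM in E2 livers and 133 to 137 CPM in control livers. Most of this sum was Bst2 in each group. Bst2, also an antiviral membrane protein, averaged 126 ± 4.92 CPM in BPSIP livers, 92.5 ± 4.88 CPM in E2 livers and 123 ± 1.7003 CPM in control livers (SD, n = 3 each; 0.45 ± 0.059, adjusted p = 8.75e-08, edgeR). Clec9a, a receptor of cross-presenting dendritic cells, changed by 1.33 ± 0.34. Of 6 adipocyte markers tested 1 was lower (16.7%, near the 18.6% of all genes) and none higher. Their sum was 34.5 to 37.7 CPM in BPSIP livers, 38.6 to 43.2 CPM in E2 livers and 40.9 to 42.8 CPM in control livers. Krt23, a keratin of the cholangiocyte list that hepatocytes can also express, had 0.752, 0.344 and 0.3604 CPM in BPSIP livers, 2.83, 2.91 and 2.31 CPM in E2 livers and 6.33, 6.13 and 6.02 CPM in control livers, and its groups did not overlap (-2.44 ± 0.26, adjusted p = 6.16e-10, edgeR).

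In the ATF4 list, Aars and Nars, cytosolic tRNA synthetases, were higher by 0.76 ± 0.051 and 0.34 ± 0.054 on the log2 scale, while Sesn2, a stress-induced sestrin, changed by -0.57 ± 0.13. In the ribosomal list, Rpl30, Rpl10a and Rpl23 changed by -0.96 ± 0.065, -0.47 ± 0.062 and -0.37 ± 0.0502, and in oxidative phosphorylation Ndufb5, Uqcrfs1, Cox6c and Atp5g2 by -0.29 ± 0.062, -0.26 ± 0.056, -0.25 ± 0.059 and -0.27 ± 0.072. Hepatocyte markers with the smallest p were Cyp2e1, Apoa1, Rbp4 and Tat, with changes of -0.65 ± 0.055, -0.54 ± 0.059, -0.45 ± 0.055 and -0.39 ± 0.0505. Apoa1 averaged 8863 ± 327 CPM in BPSIP livers, 12867 ± 1312 CPM in E2 livers and 8937 ± 71.3 CPM in control livers, so that E2 was the high group, whereas Cyp2e1 averaged 5440.4 ± 311, 8525 ± 325 and 8494 ± 74.3 CPM in BPSIP, E2 and control livers, so that BPSIP was the low one (SD, n = 3 each).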
